A study of Mus musculus with 40 samples.

Results

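Neurotrophic factors are secreted proteins that keep neurons alive and shape their growth and synapses, and 8 genes for such factors and their receptors were followed here in mouse striatum. The members were the rows named Bdnf, Ntf3, Gdnf, Ntrk2, Ntrk3, Gfra1, Gfra2 and Ret, which are 8 of the 24060 genes counted. Bdnf and Ntf3 encode neurotrophins, whose preferred receptors are the tyrosine kinases TrkB (Ntrk2) and TrkC (Ntrk3). Gdnf encodes a ligand that binds the membrane-anchored coreceptor GFRα1 (Gfra1), GFRα2 (Gfra2) is the coreceptor preferred by the related ligand neurturin, and both coreceptors signal through the tyrosine kinase Ret. In the striatum, BDNF protein is known to arrive largely in axons from cortical neurons, so transcript level and protein supply can differ.

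Expression was measured by RNA sequencing in 40 libraries from adult mice, in 10 groups of 4. RiboTag is a haemagglutinin-tagged ribosomal protein Rpl22 delivered to the striatum by a virus, from either the astrocyte promoter gfaABC1D or the neuron promoter hSyn1; RNA bound to tagged ribosomes was immunoprecipitated (IP), and RNA of the cleared lysate was kept as input. The control groups (C57/BL6NTac, input and IP) and the SynIP group with the inputs of its cohort (C57/BL6NTac, hSyn1 RiboTag) were wild type. The SAPAP3 cohort held WT mice (C57/BL6J) and SAPAP3 KO mice (C57/BL6J-Dlgap3 KO), each as input and IP, and bulk striatum without IP was taken from WT and SAPAP3 KO mice labelled C57/BL6NTac. The study's methods give an older age at virus injection for SAPAP3 KO mice than for C57/BL6NTac mice. The SAPAP3 KO removes a postsynaptic scaffold protein encoded by Dlgap3 and is used as a model of obsessive-compulsive disorder. The labels name the virus of the SynIP group only, and they give its IP libraries other animal numbers than the inputs of its cohort, so these were paired only by the number in their titles. Of 10 astrocyte markers, 10 were higher in control IP than in its input, and the same held for the IP of SAPAP3 WT and of SAPAP3 KO mice, whereas in SynIP 0 of 10 were higher and 2 were lower. Some markers of other cells rose in the same IPs: of 8 striatal interneuron markers 6, 6 and 4 were higher in control, SAPAP3 WT and SAPAP3 KO IP (sums of 1122 to 1246, 680.0 to 819.8 and 689.3 to 737.7 CPM, against 272.3 to 338.6 CPM in their inputs), and of 5 ependymal markers 5 in each (77.6 to 171.5 against 23.9 to 39.6 CPM). Of 10 oligodendrocyte markers 0, 4 and 5 were higher there. In SynIP 3 of 8 interneuron, 0 of 5 ependymal and 0 of 10 oligodendrocyte markers were higher. The part of these cells in the enrichments below was not tested. The medium spiny neuron markers, which mark the main striatal neuron, were higher in SynIP for 3 of 10 and lower in control IP for 5 of 10. Of 6 markers of all neurons, 0 were higher and 0 lower in SynIP and in control IP. In SAPAP3 WT IP and SAPAP3 KO IP 0 of these 6 were higher and 1 was lower. The control mice were all male and the SynIP mice all female by Xist and Ddx3y reads, so that virus, cohort and sex cannot be told apart between these cohorts.

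Library totals ran from 23438112 to 84109800 reads counted in genes. Dlgap3 was lower in KO than in WT in input (180.1 ± 17.0 against 421.1 ± 63.0 CPM, the gene's reads scaled to a common library total; SD, n = 4), in IP (65.5 ± 16.4 against 175.4 ± 26.8 CPM) and in bulk striatum (153.0 ± 7.19 against 332.7 ± 70.1 CPM), with log2(FC) of -1.19 ± 0.10, -1.40 ± 0.17 and -1.14 ± 0.14 (SE) and edgeR adjusted p of 0.00698, 0.0283 and 0.318. One animal identifier was used for both a WT and a KO bulk library. Every level below is in CPM of the library total unless it is given per length, every log2(FC) is from edgeR with its standard error, and adjusted p is the Benjamini-Hochberg value over all genes tested. In IP against input a gene was called at adjusted p below 0.05 and an absolute log2(FC) above 1, and in KO against WT at adjusted p below 0.05.

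The control groups, the SynIP groups and the SAPAP3 groups also differed in the level of cortical neuron markers. The summed level of 5 markers of cortical glutamatergic neurons (Slc17a7, Neurod6, Neurod2, Tbr1 and Fezf2) was 77.3 to 111.8 CPM in the 4 control inputs, 707.4 to 952.1 CPM in the 4 inputs of the SynIP cohort and 679.9 to 837.5 CPM in the 4 SAPAP3 KO inputs. It was 80.3 CPM in SAPAP3 WT input 1 against 560.02 to 719.5 CPM in the other 3 WT inputs, and 250.4 and 206.4 CPM in bulk WT 2 and 3 against 994.9 and 796.1 CPM in the other 2. None of the 5 markers was at 0 throughout a group.

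**Figure D1:**
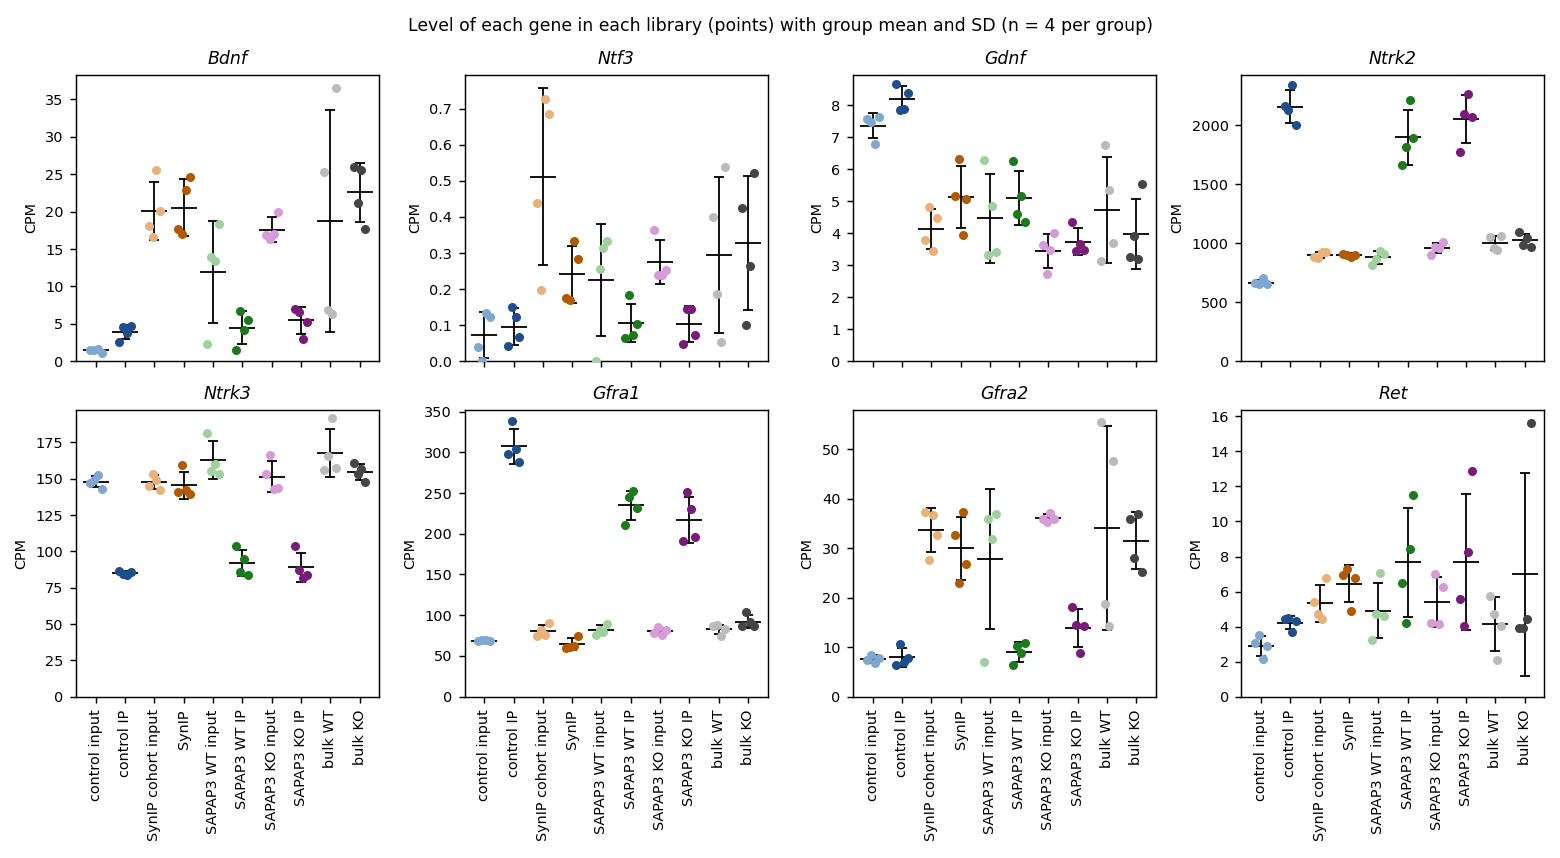
Level of each of the 8 genes in CPM (vertical axis, starting at 0) in the 40 libraries, 1 point per library, with the mean and SD of each group of 4. Ntrk2 and Gfra1 stood apart in control IP, SAPAP3 WT IP and SAPAP3 KO IP, and Bdnf and Gfra2 were spread widely in bulk WT.

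RefSeq start sites with upstream sequence (GRCm38.p6, the mm10 build) were matched for 5 of the 8 genes. The upstream sequences of the ligand genes Bdnf and Gdnf are shown because both were counted in every library and their levels ran in opposite directions across the tissue libraries, as described further on. Each line holds the 150 bases before a start site, 5′ to 3′ on the gene's strand. For Bdnf it is chr2:109692286-109692435 (plus strand), 1 of 7 Bdnf start sites and chosen because it holds the motif, and for Gdnf chr15:7809898-7810047 (plus strand), 1 of 2 Gdnf start sites and likewise the one with the motif. Capitals mark the half-site of the cAMP response element (TGACG on either strand, contained in the full palindrome), at which the activity-dependent factor CREB is known to bind.

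Bdnf: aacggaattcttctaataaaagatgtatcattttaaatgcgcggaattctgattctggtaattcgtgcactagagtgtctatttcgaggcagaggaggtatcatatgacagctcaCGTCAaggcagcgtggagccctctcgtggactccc

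Gdnf: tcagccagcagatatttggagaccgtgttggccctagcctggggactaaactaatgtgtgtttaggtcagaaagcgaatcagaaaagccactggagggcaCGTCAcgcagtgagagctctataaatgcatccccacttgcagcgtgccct

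The half-site stood once in each stretch, read as CGTCA on the strand shown. It was found in 20.8% of the 32851 promoter windows of 300 bases in the table, and the full palindrome TGACGTCA in 1.79% of them and in no window of the members, so its presence here is a description only.

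The receptor genes Ntrk2 and Gfra1 were the most enriched members in the IP of the cohorts with high astrocyte markers. Ntrk2 was 662.6, 652.1, 703.7 and 652.2 CPM in control inputs 1 to 4 and 2160, 2130, 2345 and 2002 CPM in control IPs 1 to 4. The groups did not overlap, and IP exceeded input in 4 of 4 mice, with a log2(FC) of 1.91 ± 0.05 (adjusted p = 6.07e-11). Gfra1 was 67.8, 69.1, 69.9 and 68.1 CPM in control input against 298.1, 338.0, 303.8 and 288.6 CPM in control IP, a log2(FC) of 2.38 ± 0.05 (adjusted p = 9.18e-12), higher in 4 of 4 mice. This was the highest log2(FC) among the 7 members tested in that cohort. The exons of Gfra1 overlap those of Gm10007 on the opposite strand, and the strand setting of the counting is not given in the sources used here, so its reads could include some of that gene.

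Both receptors were also higher in IP than in input in SAPAP3 WT and SAPAP3 KO mice. Ntrk2 was 812.3, 863.5, 937.1 and 906.7 CPM in WT input and 1664, 1817, 2215 and 1891 CPM in WT IP (log2(FC) 1.28 ± 0.11, adjusted p = 5.96e-06), and in KO mice the log2(FC) was 1.30 ± 0.09 (adjusted p = 3.95e-07). Gfra1 rose from 81.9 ± 5.58 CPM in WT input to 234.7 ± 18.2 CPM in WT IP (log2(FC) 1.69 ± 0.08, adjusted p = 3.48e-07) and from 80.2 ± 4.28 to 217.0 ± 28.5 CPM in KO mice (log2(FC) 1.64 ± 0.10, adjusted p = 1.46e-07; SD, n = 4). In each of these 4 contrasts IP was above input in 4 of 4 mice without overlap between groups.

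In SynIP neither receptor was enriched by these criteria. Ntrk2 was 880.7, 876.8, 925.6 and 922.8 CPM in the inputs of that cohort and 913.2, 905.1, 883.0 and 903.6 CPM in SynIP, groups that overlap. Its log2(FC) was 0.20 ± 0.04 (adjusted p = 0.000659) with TMM scaling and -0.0007 (adjusted p = 0.989) with total counts, so that its direction rested on the scaling. Gfra1 was 74.5, 82.4, 75.7 and 90.04 CPM in input and 59.3, 61.5, 62.3 and 74.9 CPM in SynIP, a log2(FC) of -0.12 ± 0.08 (adjusted p = 0.205). The difference between the cohorts was tested as an interaction: IP over input was lower in SynIP than in control, with a log2 difference of -1.71 ± 0.07 for Ntrk2 (adjusted p = 4.28e-13) and -2.50 ± 0.10 for Gfra1 (adjusted p = 5.10e-13). In that interaction 70.1% of all genes tested passed.

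The neurotrophin-3 receptor gene Ntrk3 ran the other way from Ntrk2. It was 147.1, 148.8, 152.7 and 143.1 CPM in control input and 86.4, 84.1, 83.7 and 85.6 CPM in control IP, lower in IP in 4 of 4 mice without overlap (log2(FC) -0.58 ± 0.03, adjusted p = 2.65e-08). This change passed the test but not the fold limit. The log2(FC) was -0.65 ± 0.08 in SAPAP3 WT (adjusted p = 8.90e-05) and -0.56 ± 0.08 in SAPAP3 KO mice (adjusted p = 9.54e-05). In SynIP it was 0.18 ± 0.05 (adjusted p = 0.00769) with TMM scaling and -0.02 (adjusted p = 0.711) with total counts. IP over input for Ntrk3 was higher in SynIP than in control by 0.76 ± 0.06 on the log2 scale (adjusted p = 5.50e-09).

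**Figure D2:**
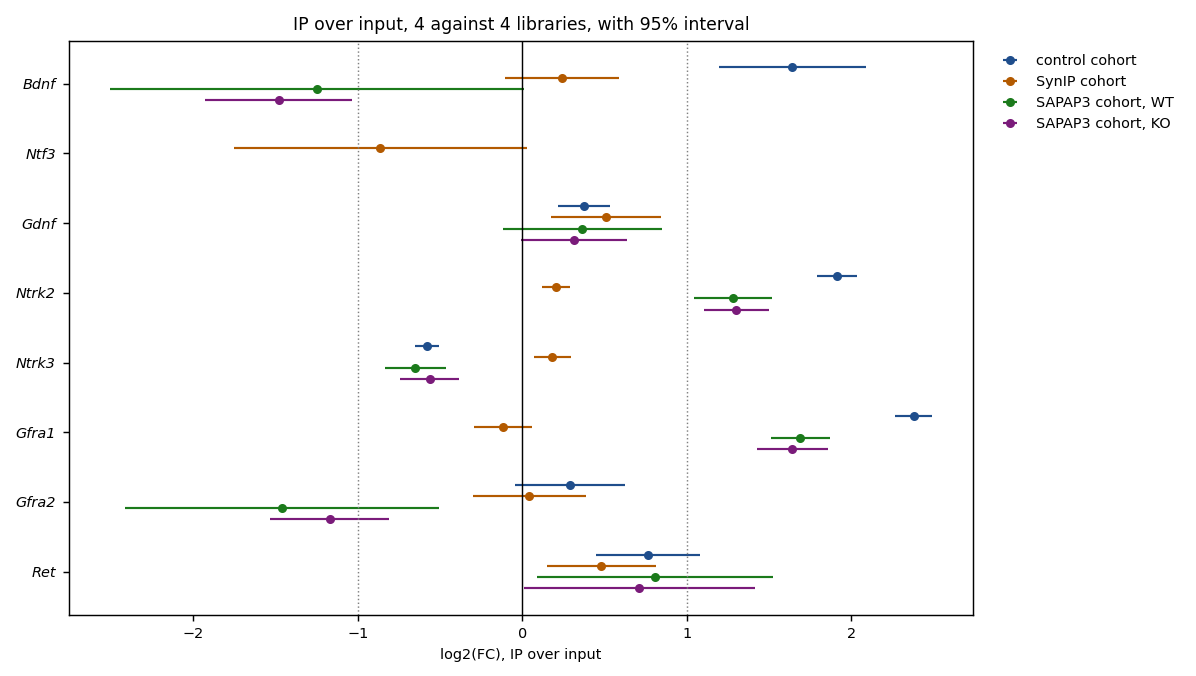
Log2(FC) of IP over input (horizontal axis) for each gene in the 4 cohorts, with 95% intervals from edgeR and dotted lines at the fold limit of 1 in both directions; Ntf3 was tested in the SynIP cohort only. Ntrk2 and Gfra1 lie above 1 in control and SAPAP3 mice and near 0 in SynIP, and Bdnf lies at 1.64 in control but below -1 in SAPAP3 mice.

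IP over input of Bdnf ran in opposite directions in the control and the SAPAP3 cohorts. The IP levels overlapped: 2.65 to 4.72 (control), 1.53 to 6.78 (SAPAP3 WT) and 3.03 to 7.00 CPM (SAPAP3 KO). The inputs differed: control input (1.13 to 1.67 CPM) lay below SAPAP3 WT (2.35 to 18.4 CPM) and SAPAP3 KO input (16.3 to 20.01 CPM). Bdnf was 1.49, 1.52, 1.67 and 1.13 CPM in control input and 2.65, 4.53, 3.76 and 4.72 CPM in control IP. It was higher in IP in 4 of 4 mice (log2(FC) 1.64 ± 0.20, adjusted p = 1.61e-05). In SAPAP3 KO mice it was 16.9, 16.3, 17.1 and 20.01 CPM in input and 7.00, 6.56, 3.03 and 5.25 CPM in IP, lower in 4 of 4 mice (log2(FC) -1.48 ± 0.20, adjusted p = 6.52e-05). In SAPAP3 WT mice it was 2.35, 13.9, 13.3 and 18.4 CPM in input and 1.53, 6.78, 4.14 and 5.58 CPM in IP, lower in 4 of 4 mice, with a log2(FC) of -1.25 ± 0.56 that did not pass (adjusted p = 0.0737). It passed with the mouse as a block (log2(FC) -1.17, adjusted p = 0.000251) and without both libraries of mouse 1, whose input was the one low in cortical markers, an exclusion chosen after seeing the data (log2(FC) -1.26, adjusted p = 0.000759). IP over input was lower in SAPAP3 WT than in control mice (log2 difference -2.87 ± 0.69, adjusted p = 0.00949), in an interaction added after the values were seen, in which 20.5% of genes passed. Limma-voom did not call it (adjusted p = 0.0674, with a range over the alternatives of 4.76e-05 to 0.0674). Strain, cohort and possibly age at virus injection cannot be told apart there. In SynIP the levels were 17.7, 17.0, 22.8 and 24.7 CPM against 18.0, 16.7, 25.6 and 20.04 CPM in input (log2(FC) 0.24 ± 0.15, adjusted p = 0.188), and IP over input was lower than in control (log2 difference -1.40 ± 0.29, adjusted p = 0.000336), a call lost in 1 fit of all 40 libraries (adjusted p = 0.0652).

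Cortical markers moved with these changes of Bdnf. Their log2(FC) in IP over input ran from 0.77 to 1.89 in control, with 2 of 5 called higher, from -2.06 to -0.34 in SAPAP3 WT, with 2 of 5 called lower, and from -1.80 to -0.48 in SAPAP3 KO mice, with 4 of 5 called lower. In SynIP they ran from 0.07 to 0.41 with 0 of 5 called. The part of cortical neurons in the Bdnf values was not tested.

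Gfra2, the neurturin coreceptor gene, was 7.36, 8.53, 6.73 and 7.86 CPM in control input and 6.39, 10.7, 7.01 and 7.86 CPM in control IP, which overlap (log2(FC) 0.29 ± 0.15, adjusted p = 0.0966). In SAPAP3 KO mice it was 35.9, 35.3, 37.2 and 35.9 CPM in input and 18.1, 14.6, 8.74 and 14.3 CPM in IP, lower in 4 of 4 mice (log2(FC) -1.17 ± 0.16, adjusted p = 7.43e-05). Without KO IP 3 the log2(FC) was -0.998 and no longer passed the fold limit. In SAPAP3 WT mice it was 6.95, 35.8, 31.9 and 36.9 CPM in input and 6.35, 10.2, 8.79 and 10.8 CPM in IP (log2(FC) -1.46 ± 0.43, adjusted p = 0.0122); the low input was again that of mouse 1. IP was below input in 4 of 4 WT mice, and without both libraries of mouse 1 the log2(FC) was -1.61 (adjusted p = 7.28e-06). In SynIP it was 32.8, 22.9, 37.4 and 26.8 CPM against 37.4, 27.7, 36.8 and 32.7 CPM in input, with a log2(FC) of 0.04 ± 0.15 (adjusted p = 0.815).

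Ret and the ligands Gdnf and Ntf3 were low, as Bdnf was in control input (1.45 ± 0.23 CPM; SD, n = 4). Ret, the signalling receptor of the GDNF family, was 3.06, 3.52, 2.17 and 2.87 CPM in control input and 4.41, 4.51, 3.68 and 4.31 CPM in control IP, higher in 4 of 4 mice (log2(FC) 0.77 ± 0.14, adjusted p = 0.000433) and below the fold limit. Its log2(FC) was 0.48 ± 0.15 in SynIP (adjusted p = 0.0147), 0.81 ± 0.32 in SAPAP3 WT (adjusted p = 0.0468) and 0.71 ± 0.32 in SAPAP3 KO mice (adjusted p = 0.0635). The IP and input levels of Ret overlapped in SynIP, SAPAP3 WT and SAPAP3 KO mice. Over the alternatives its adjusted p reached 0.0566 in control, 0.221 in SynIP and 0.160 in SAPAP3 WT. Gdnf was 7.56, 7.47, 6.80 and 7.61 CPM in control input and 8.65, 7.83, 7.87 and 8.38 CPM in control IP (log2(FC) 0.38 ± 0.07, adjusted p = 0.000479). Its log2(FC) was 0.51 ± 0.15 in SynIP (adjusted p = 0.0113), and 0.37 ± 0.22 and 0.31 ± 0.15 in SAPAP3 WT and KO mice (adjusted p = 0.157 and 0.0720). The IP and input levels of Gdnf overlapped in SynIP. Over the alternatives its adjusted p reached 0.0709 in control and 0.103 in SynIP. Without the fold limit, 80.4% of all genes passed in control and 71.3% in SynIP. Ntf3 had between 0 and 37 reads per library and passed the filter on low counts only in the SynIP, SynIP against control and bulk comparisons. In the SynIP cohort it was 0.44, 0.20, 0.73 and 0.69 CPM in input and 0.18, 0.17, 0.33 and 0.28 CPM in IP (log2(FC) -0.86 ± 0.40, adjusted p = 0.0758). IP was below input in 4 of 4 pairs by title number, and the replicate block gave an adjusted p of 0.00684 at a log2(FC) of -0.85, short of the fold limit (range of adjusted p over the alternatives 0.00684 to 0.202). Ntf3 was called lower with total counts (-1.07, adjusted p = 0.0352) and without input 2 (-1.13, adjusted p = 0.0108).

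Across the members, 3 of 7 tested were called higher and 0 lower in control IP, where 26.9% of all genes were called, 13.4% higher and 13.5% lower. In SynIP 0 of 8 were called in either direction, where 16.3% of all genes were called, 0.42% higher and 15.8% lower. By limma-voom and DESeq2 the SynIP count was also 0, while 4 of 8 had an unadjusted p below 0.05, as did 73.5% of all genes. In SAPAP3 WT IP 2 were called higher and 1 lower of 7 (23% of all genes, 10.9% higher and 12.1% lower), and in SAPAP3 KO IP 2 higher and 2 lower of 7 (23.8% of all genes, 12.3% higher and 11.5% lower). The median log2(FC) of the members tested was 0.77 in control IP, 0.19 in SynIP, 0.37 in SAPAP3 WT IP and 0.31 in SAPAP3 KO IP, beside medians of all genes of -0.02, -0.002, -0.03 and -0.004. Scaling by total counts in place of TMM moved the median of all genes to -0.25, -0.21, -0.20 and -0.21 in the same order.

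Other genes of these pathways were taken from lists of ligands, receptors, adaptors, trophic factors and processing enzymes. Of 8 other receptor genes tested in control IP, 1 was higher and 1 lower. The cell adhesion molecule gene Ncam1, an alternative GDNF receptor, had a log2(FC) of 1.24 ± 0.03 (adjusted p = 3.93e-11), and Gfra4, the persephin coreceptor gene, -1.71 ± 0.07 (adjusted p = 1.62e-09). In SynIP 0 of the 8 were called by edgeR, and Ncam1 and Gfra4 had log2(FC) of 0.05 ± 0.04 (adjusted p = 0.288) and 0.24 ± 0.05 (adjusted p = 0.00262). Gfra4 was also lower in SAPAP3 WT IP (log2(FC) -1.25 ± 0.11, adjusted p = 6.98e-06) and in SAPAP3 KO IP (-1.36 ± 0.13, adjusted p = 3.72e-06). Ngfr, the low-affinity neurotrophin receptor gene, was higher in SAPAP3 WT IP (1.52 ± 0.29, adjusted p = 0.00122) and in SAPAP3 KO IP (1.67 ± 0.45, adjusted p = 0.00609). Of the 8 receptor genes, 1 was called higher and 1 lower in SAPAP3 WT IP, and 2 higher and 1 lower in SAPAP3 KO IP.

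Of 7 other secreted trophic factors, 4 were higher and 0 lower in control IP: midkine (Mdk, log2(FC) 2.04 ± 0.06), the fibroblast growth factor Fgf2 (2.03 ± 0.15), pleiotrophin (Ptn, 1.83 ± 0.05) and ciliary neurotrophic factor (Cntf, 1.42 ± 0.38), with adjusted p from 6.56e-11 to 0.00481. In SynIP 0 of 7 were higher and 1, Cntf, was lower (log2(FC) -1.47 ± 0.29, adjusted p = 0.00115). Of these 7 factors, 3 were called higher and 0 lower in SAPAP3 WT IP, and 4 higher and 0 lower in SAPAP3 KO IP. Of the 3 other ligands tested in control IP, artemin (Artn, -1.52 ± 0.36, adjusted p = 0.0024) and neurturin (Nrtn, -1.05 ± 0.11, adjusted p = 2.80e-06) were lower, and in SynIP 0 of 3 passed. In SAPAP3 WT IP and SAPAP3 KO IP 0 of 3 ligands were called as well. Their log2(FC) ran from -1.06 to -0.02 in WT and from -0.45 to 0.22 in KO mice. The processing enzyme gene Pcsk6, 1 of 6, was higher in control IP (1.66 ± 0.06, adjusted p = 3.37e-10). Of 16 adaptors and signalling proteins only Gab1 was called there (1.00 ± 0.09, adjusted p = 6.21e-07). In SynIP Gab1 was lower (-1.52 ± 0.11, adjusted p = 9.88e-07) together with Shc1 (-1.24 ± 0.09, adjusted p = 9.61e-07). Of the 6 enzymes, 1 was called higher in SAPAP3 WT IP and 1 in SAPAP3 KO IP. Of the 16 adaptors and signalling proteins, 0 were called in SAPAP3 WT IP and 1 was higher in SAPAP3 KO IP.

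In tissue that had not been immunoprecipitated, Bdnf and Gfra2 were low in the libraries with a low cortical marker sum. Over the 24 input and bulk libraries, the 7 with the lowest sum (77.3 to 250.4 CPM) were the 4 control inputs, SAPAP3 WT input 1 and bulk WT 2 and 3, and the other 17 had sums of 444.5 to 994.9 CPM. Bdnf was 1.13 to 6.80 CPM in these 7 and 13.3 to 36.5 CPM in the 17, and Gfra2 was 6.73 to 18.8 against 25.2 to 55.5 CPM. The 7 libraries lowest in the marker sum were the 7 lowest for each of these genes. Gdnf was 5.34 to 7.61 CPM in the 7 and 2.71 to 5.54 CPM in the 17, the reverse order, with 6 of the 7 among its 7 highest libraries. Ntf3 and Ret each had 6 of the 7 among their 7 lowest libraries, Ntrk2 and Gfra1 5 of 7 and Ntrk3 2 of 7. Among the 17 the orders differed: bulk KO 4, with the lowest sum of them (444.5 CPM), had 17.6 CPM of Bdnf, and SAPAP3 WT input 2, at 719.5 CPM, had 13.9 CPM. The medium spiny neuron marker sum divided the same libraries the other way, at 5998 to 7652 CPM in the 7 and 3127 to 4976 CPM in the 17. The part of either cell type in the differences between these 7 and 17 libraries was not tested. Libraries of a group share their cohort, so the values are given without a test, and in tissue RNA fewer cells of a type and less RNA per cell cannot be told apart.

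**Figure D3:**
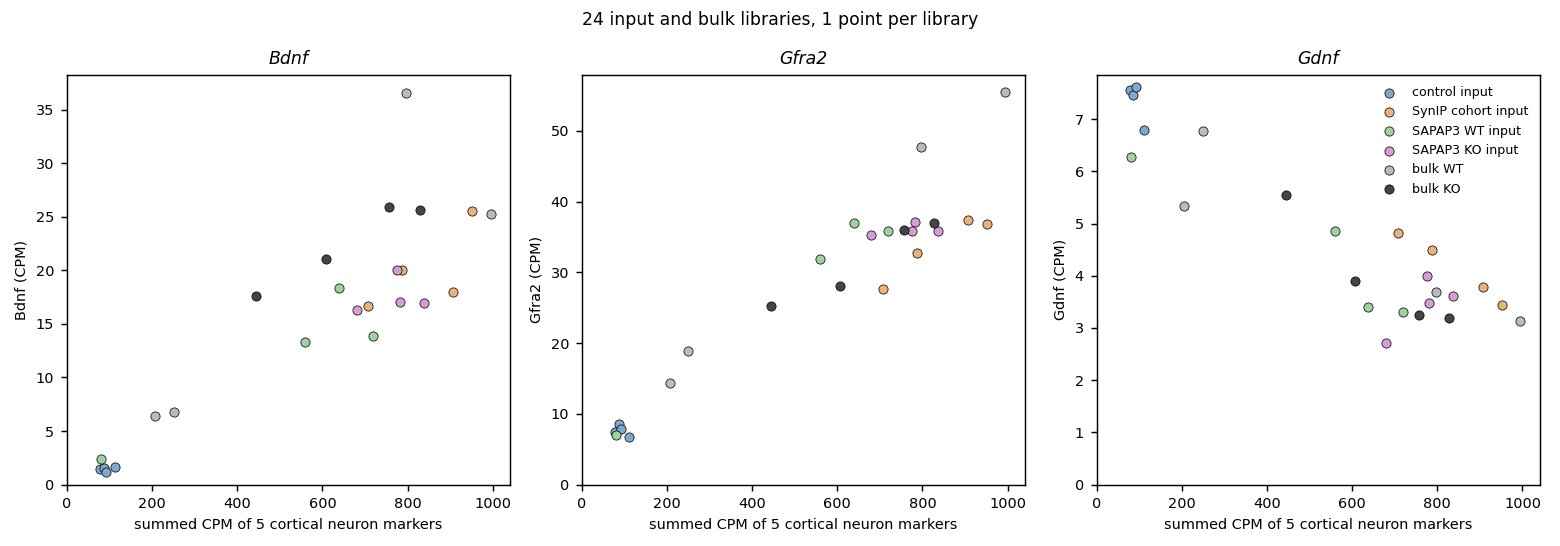
CPM of Bdnf, Gfra2 and Gdnf (vertical axes) against the summed CPM of 5 cortical glutamatergic neuron markers (horizontal axis) in the 24 input and bulk libraries, 1 point per library, coloured by group. The 7 libraries with sums up to 250.4 CPM hold the 7 lowest Bdnf and Gfra2 values and 6 of the 7 highest Gdnf values.

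None of the members was called between SAPAP3 KO and WT mice by edgeR. In input 0 of 7 were called (0.00641% of all genes were), in IP 0 of 7 (0.0263% of all genes) and in bulk striatum 0 of 8 (0% of all genes), and limma-voom and DESeq2 also called 0. In bulk striatum edgeR did not call Dlgap3 either (log2(FC) -1.14 ± 0.14, adjusted p = 0.318), so the lack of a call there does not show that a member was unchanged. At an unadjusted p below 0.05 there were 0, 2 and 0 members, beside 5.57%, 2.63% and 4.94% of all genes, and the 2 were Gdnf and Gfra2 in IP. Gdnf was 6.26, 4.61, 5.15 and 4.34 CPM in WT IP and 4.34, 3.44, 3.66 and 3.48 CPM in KO IP, with a log2(FC) of -0.43 (95% interval -0.74 to -0.12, adjusted p = 0.999). Gfra2 was 6.35 to 10.8 CPM in WT IP and 8.74 to 18.1 CPM in KO IP, with a log2(FC) of 0.64 (95% interval 0.16 to 1.13, adjusted p = 0.999). Beside it, the cortical marker sum was 17.6 to 215.9 CPM in WT IP and 105.0 to 316.6 CPM in KO IP.

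For the abundant receptors the intervals were narrow. The log2(FC) of KO over WT was 0.15 (95% interval -0.008 to 0.32) for Ntrk2 in input, 0.13 (-0.12 to 0.38) in IP and 0.005 (-0.17 to 0.18) in bulk striatum. For Gfra1 it was -0.001 (-0.15 to 0.14), -0.09 (-0.33 to 0.14) and 0.13 (-0.03 to 0.30), and for Ntrk3 -0.07 (-0.22 to 0.08), -0.03 (-0.23 to 0.18) and -0.14 (-0.31 to 0.03) in the same order. The intervals of Bdnf were wider, 0.56 (-0.38 to 1.51) in input, 0.29 (-0.58 to 1.17) in IP and 0.23 (-0.94 to 1.41) in bulk striatum. Bulk Bdnf was 25.3, 6.80, 6.38 and 36.5 CPM in WT and 25.9, 21.1, 25.6 and 17.6 CPM in KO mice. Without the 2 low WT libraries, of which number 3 was the only female among the bulk libraries, its log2(FC) was -0.49 (adjusted p = 0.306). Ret in bulk KO was 3.91, 3.93, 4.44 and 15.6 CPM, against 5.77, 4.73, 2.12 and 4.04 CPM in WT, and its log2(FC) of 0.70 (-0.40 to 1.81) became -0.05 without the single high library. The change of IP over input between genotypes was called for 0 of 7 members (0% of all genes by edgeR, with 0 members and 1.26% of all genes at an unadjusted p below 0.05, and 0 members by limma-voom and DESeq2). Among the other ligands, receptors, adaptors, trophic factors and processing enzymes, 0 were called in input, IP or bulk striatum by edgeR.

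**Figure D4:**
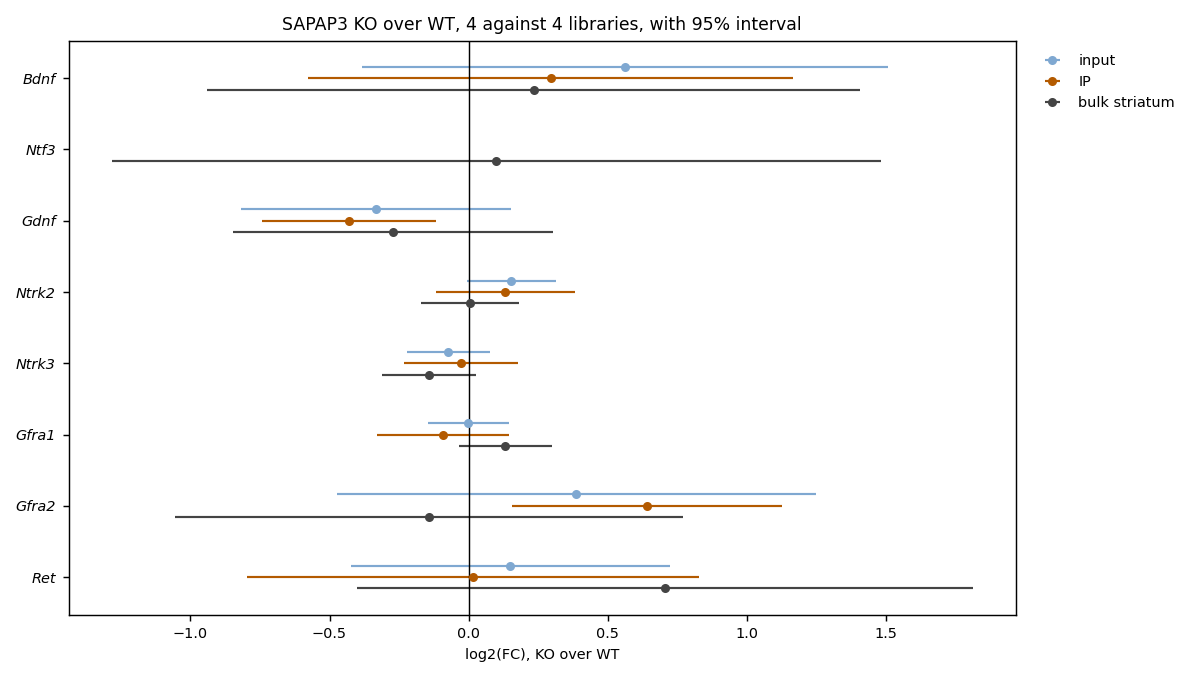
Log2(FC) of SAPAP3 KO over WT (horizontal axis) for each gene in input, IP and bulk striatum, 4 against 4 libraries each, with 95% intervals from edgeR. The intervals of Ntrk2, Ntrk3 and Gfra1 are the narrowest, and those of Bdnf, Ntf3, Gdnf, Gfra2 and Ret in bulk striatum reach beyond 0.7 in at least 1 direction.

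To set levels of different genes side by side with length taken into account, values per kilobase (FPKM) were used, with the merged exons of curated RefSeq transcripts. In control IP Ntrk2 was at 153.8 FPKM, Gfra1 at 64.7 FPKM and Ntrk3 at 16.4 FPKM, and in SynIP they were at 64.2, 13.6 and 28.1 FPKM. Bdnf was at 0.22 FPKM in control input and 3.06 FPKM in SynIP. These levels rested on the annotation. With every RefSeq model counted in the length, control IP had 60.8 FPKM of Ntrk2, 54.8 FPKM of Gfra1 and 4.08 FPKM of Ntrk3, and the order of Ntrk3 (6.98 FPKM) and Gfra1 (11.5 FPKM) in SynIP was reversed. Reads were summed per gene, so full-length and truncated TrkB, which share the Ntrk2 gene, were not separated.

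Over the 10 group means of log2(CPM + 0.5), the genes whose pattern was most like that of a member, among 14814 genes with at least 1 CPM in a group, were Sparcl1 for Gfra1 (Pearson r = 0.996), Ccpg1 for Ntrk2 (r = 0.993), Cnot7 for Ntrk3 (r = 0.996), Gng2 for Bdnf (r = 0.991), Ipcef1 for Gfra2 (r = 0.998), Nudc for Gdnf (r = 0.954) and 3632451O06Rik for Ret (r = 0.96). The points share cohorts and libraries, so these are descriptions.

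By order of level, Ntrk2 and Gfra1 were highest in the control and SAPAP3 IP groups, and among the remaining groups control input was lowest for Ntrk2 and SynIP for Gfra1. Gdnf was highest in control IP and control input, whose ranges did not overlap each other or the next group, while the ranges of each pair of neighbours below them in the order did. Bdnf was lowest by mean in control input, whose range (1.13 to 1.67 CPM) lay apart from that of its next neighbour control IP. The range of SAPAP3 WT IP (1.53 to 6.78 CPM) overlapped that of control input. The ranges of all neighbours above control IP overlapped. Ntrk3 was lowest in control IP (85.0 ± 1.25 CPM), SAPAP3 KO IP (89.1 ± 9.88) and SAPAP3 WT IP (92.0 ± 9.11), apart from SynIP (145.4 ± 9.22) and the 6 input and bulk groups, which ran up to 167.8 ± 16.5 CPM in bulk WT with overlap between neighbours (SD, n = 4). Gfra2 ran from 7.62 ± 0.76 CPM in control input to 36.1 ± 0.80 CPM in SAPAP3 KO input and Ret from 2.91 ± 0.56 CPM in control input to 7.69 ± 3.89 CPM in SAPAP3 KO IP, with overlap between all neighbours for both. Ntf3 stayed at or below 0.73 CPM in every library.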

How the data were processed

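The authors deposited 1 table of raw read counts per gene for all libraries. Per the labels and the study's methods, reads were aligned to mm10 with STAR and counted with HTSeq; the strand setting is not given in the sources used here. Libraries were grouped by their labels. Counts were tested with edgeR 4.0.16 (filterByExpr, TMM, quasi-likelihood F-test, only the groups compared in each fit), R 4.3.3, and adjusted over all genes tested. The standard error is the absolute log2(FC) over the square root of F. CPM uses library totals of 23438112 to 84109800 counts; FPKM adds RefSeq exon lengths. The code was tested on simulated counts. IP and input libraries of the same mouse (for SynIP, of the same title number) deviated together (lowest correlation 0.248, 0.48, 0.534 and 0.434 in control, SynIP, SAPAP3 WT and SAPAP3 KO), so a fit with the replicate block was an alternative. P-values weigh the difference between groups against the spread between the libraries of a group, and the main fits did not use the pairing. The members and lists were chosen with earlier results of these data known. Named genes were the members, Dlgap3, list genes called with the largest changes, and the most alike genes. One gene of the receptor list and 1 cortical marker are not reported here and were left out of their lists. Alternatives were RLE scaling, total counts, limma-voom 3.58.1, DESeq2 1.42.0, other filters, all libraries in 1 fit, sex as a covariate and leaving out libraries.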

Additional observations from a re-analysis of the deposited data

Results flagged for a closer look

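In 4 of 80 sets of 4 libraries (8 genes in 10 groups) 1 library lay far from the other 3 by Dixon's test, where chance gives about 1 in 20. Ret was 15.6 CPM in bulk KO 4 and 3.91 to 4.44 CPM in the other 3. Gfra2 was 6.95 CPM in SAPAP3 WT input 1 and 31.9 to 36.9 CPM in the others. Ntrk3 was 159.1 CPM in SynIP 2 and 139.2 to 142.2 CPM in the others. Ntf3 was 0.365 CPM in SAPAP3 KO input 1 and 0.24 to 0.252 CPM in the others, at 7 to 11 reads per library.

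IP over input was compared between cohorts by an interaction term in edgeR over 8 against 8 libraries. Between SynIP and control it differed for 4 of 8 members, where 70.1% of all genes tested passed. These were Bdnf (log2 difference -1.40), Ntrk2 (-1.71), Ntrk3 (0.76) and Gfra1 (-2.50). Between SAPAP3 WT and control mice it differed for 4 of 7 members, where 20.5% of all genes tested passed. These were Bdnf (-2.87), Ntrk2 (-0.61), Gfra1 (-0.67) and Gfra2 (-1.73). Adjusted p was 0.000336, 4.28e-13, 5.50e-09 and 5.10e-13 for the first 4 and 0.00949, 0.0024, 0.000293 and 0.023 for the others. All-library and limma-voom fits lost some of these calls: Bdnf between SynIP and control (adjusted p = 0.0652 with all 40 libraries), and Bdnf and Gfra2 between SAPAP3 WT and control (adjusted p = 0.0674 and 0.116 with limma-voom). SynIP and control differ in virus, cohort and sex, which cannot be told apart. SAPAP3 WT and control differ in cohort, strain (C57/BL6J against C57/BL6NTac) and possibly age at virus injection, which cannot be told apart either. SAPAP3 WT held 3 males and 1 female against 4 males in control.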

How the results depend on the processing

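Of the 73 log2(FC) values of members in 10 comparisons, 561 of 598 recomputations under other settings and 602 of 648 that left out 1 library kept their direction and their side of the threshold. The enrichment of Ntrk2 and Gfra1 in control, SAPAP3 WT and SAPAP3 KO IP was called in each of them. Most changes of direction were in values near 0 that passed no test, and the cause was not tested.

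With total counts in place of TMM, SynIP over input turned to -0.0007 for Ntrk2, -0.0214 for Ntrk3 and -0.1666 for Gfra2, and 1 member was called (Ntf3, -1.07). With genes above 5 FPKM only, fewer genes were tested and 1826, 571, 1383 and 1525 genes were called in control, SynIP, SAPAP3 WT and SAPAP3 KO IP, and 1 in KO against WT in IP. Gfra2 in SynIP turned to -0.1254. In IP over input of SAPAP3 WT against control mice, 2 members were then called, and Bdnf and Gfra2 did not pass the filter, so they were not tested. Limma-voom also called 2 members there, but it tested Bdnf and Gfra2 without calling them.

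In KO against WT, DESeq2 called 8 genes in input, 8 in IP, 17 in bulk striatum and 1 for IP over input, and all 40 libraries in 1 fit called 8 in input, 18 in bulk striatum and 1 for IP over input. Gfra1 in input turned to 0.0009 (RLE), 0.0003 (limma-voom), 0.0005 (DESeq2), 0.0032 (no filter) and 0.0006 (sex as a covariate). Limma-voom turned Ret in IP to -0.02 and Gfra2 in bulk striatum to 0.0494. Sex as a covariate turned bulk Bdnf to -0.0499, Ntf3 to -0.215 and Ntrk2 to -0.021. With the cortical marker level as a covariate, added after the data were seen, 2 genes were called in IP, and the values were -0.016 for Ret and -0.1044 for Gfra2 in input, -0.2781 for Bdnf and 0.0218 for Ntrk3 in IP, and -0.0378 for Ntrk2 in bulk striatum. Without bulk WT 2 and 3, also added later, 5 genes were called and Bdnf turned to -0.4891, Ntf3 to -0.5422, Gdnf to 0.1783 and Ntrk2 to -0.0845.

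In IP over input of SAPAP3 WT against control mice, Gdnf turned to -0.018 (RLE), -0.0174 (DESeq2), -0.0071 (no filter) and -0.0372 (all libraries), and Ret to -0.021 (limma-voom). There limma-voom no longer called Bdnf (adjusted p = 0.0674) or Gfra2 (adjusted p = 0.116). With the replicate block 4980 genes were called there in place of 3280, Bdnf was called lower in SAPAP3 WT IP, and Gfra2 differed between SynIP and control (-0.26, adjusted p = 0.0347); the block changed no other call of a member. All 40 libraries in 1 fit left Bdnf between SynIP and control at an adjusted p of 0.0652.

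Leaving out 1 library at a time gave 0 to 1 members called in SynIP (Ntf3 without input 2), 3 to 5 in SAPAP3 WT IP (Bdnf and Ntf3 added without input 1, Ret without input 3), and 0 to 1, 0 to 3 and 0 to 1 genes called in KO against WT in input, IP and bulk striatum. Gfra2 in SynIP ranged from -0.087 to 0.1582. In KO against WT in input, Gfra1 ranged from -0.0454 to 0.0436 and Ret from -0.0075 to 0.3929, and in IP Ntrk3 from -0.1045 to 0.0301 and Ret from -0.3391 to 0.2893. In bulk striatum Bdnf ranged from -0.0496 to 0.7738, Ntf3 from -0.215 to 0.5312, Ntrk2 from -0.0359 to 0.0398, Gfra2 from -0.3954 to 0.2103 and Ret from -0.0476 to 0.9169. For IP over input between genotypes the ranges were -0.565 to 0.0689 for Bdnf, -0.2776 to 0.0453 for Gdnf, -0.0891 to 0.0673 for Ntrk2, -0.0256 to 0.1081 for Ntrk3 and -0.4857 to 0.1476 for Ret. Depth limits Ntf3 most, with at most 37 reads in a library.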
